A study of Mus musculus with 6 samples.

Results

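Genes that drive the cell cycle and copy the genome were followed in mouse epididymal white fat after a single dose of a beta3-adrenergic agonist. The set holds every gene on the array whose symbol is that of a cyclin (Ccn, a letter and a digit), a cyclin-dependent kinase (Cdk and a digit), a minichromosome maintenance gene (Mcm and a digit), an origin recognition gene (Orc and a digit) or a numbered Cdc gene, together with Top2a, Mki67, Pcna, Rrm1, Rrm2, Aurka, Aurkb, Bub1, Plk1 and Tyms. That rule reads names alone and gave 82 genes on 88 probes, of 13409 genes named on 14711 probes. It uses no measured value, and it also takes in genes that share only a name with the cell cycle, such as the partners of the GTPase Cdc42.

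The mice were 12-week-old C57BL/6J males given 1 mg of CL-316,243 per kg body weight or saline, and their fat was taken 3 hr later. The labels name the agonist CL316,246 in one place. RNA of 6 mice was combined into 1 pool for each treatment, and the pools were co-hybridised to 6 two-colour spotted slides. Arrays 1, 2 and 3 carried the CL-316,243 pool in channel 1, and arrays 4, 5 and 6 carried it in channel 2. With 1 pool per treatment the 6 arrays are repeat measurements of the same RNA, so every p-value below covers the spread between arrays and says nothing of the spread between mice. Each deposited value is a log ratio between the channels, read here as log2. The sources used here do not say which pool stands on top of the ratio. "Higher" and "lower" therefore refer to the pool on top, and if saline was on top, all directions below must be turned. The same pool is taken to be on top on all 6 arrays, which the sources used here do not state either. If 1 channel was on top throughout, the difference between the pools would lie in the orientation term instead. Signs did not turn with the dyes for Svs5, negative on all 6 arrays, or Serpina1f, positive on all 5 that measured it. A value of 1 is a 2-fold difference if the logs are base 2, and more if they are natural logs.

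A cell that leaves rest switches on D-type cyclins, which work with Cdk4 and Cdk6, and then E- and A-type cyclins, which work with Cdk2. In early G1 the origin recognition complex and Cdc6 load the ring of Mcm2 to Mcm7 onto DNA, and later Cdc45 and the GINS complex join that ring to make the active helicase of the replication fork. Cdk1 with B-type cyclins then drives mitosis, and the anaphase-promoting complex with Cdc20 ends it. Mature fat cells have left the cycle, and dividing cells of fat tissue are found mainly among progenitors, endothelial cells and immune cells.

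The deposited columns do not line up row by row. Each array's column had lost spots and was closed up, so it was first put back on probe numbers (see the processing section), which placed 96.0%, 60%, 95.7%, 91.0%, 99.1% and 99.8% of the probes on arrays 1 to 6. Array 2 stands apart: it had lost 724 rows, only 34 of the 82 members have a value on it, and only 1 of 31 positions given by control spots alone was the same there, against at least 96.5% on each of the other arrays. Which gene a value belongs to rests on the control spots. A placement on agreement between arrays alone, run after the data were seen, put between 77.8% and 99.0% of the commonly placed probes of an array 1 position away from the numbering used here. Placement on control spots alone gave the same position for the shares just named. Over 971 pairs of probes of 1 gene, which share their arrays, the mean log2 ratios clipped at 2 had a Pearson correlation of 0.127, and without control spots 0.0240 over 914 pairs. The Spearman correlations were 0.066 and 0.025, so probes of 1 gene agreed only weakly under either numbering. Where at least 1 probe of a pair reached 1 in size, 9 of 12 pairs had 1 sign here and 5 of 14 without control spots. On control spots alone the Pearson correlation was 0.101 over 588 pairs, and 1 of 2 such large pairs had 1 sign. Every member result is given with its value without array 2 where that array changes the call. After placement the mean Spearman correlation over probes was 0.28 between arrays of the same orientation (0.10 to 0.41) and 0.09 between arrays of opposite orientation (-0.03 to 0.18). Placement draws on agreement between arrays, so these values are partly built in. On control spots alone, without array 2, the means were 0.27 over 4 pairs of the same orientation and 0.08 over 6 pairs of opposite orientation. No intensities were used here, so no level is known, and neither the tissue nor the presence of a transcript can be checked from its ratio. Among 7 tested genes of the male reproductive tract 6 passed the test, with Svs5 at -5.47 and Serpina1f at 4.29, and their part in the member results was not tested.

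Of the 82 members 73 had values on at least 2 arrays of each orientation and were tested with limma, and 4 passed at an adjusted p under 0.05 (5.48%), beside 3.20% of all 12498 genes tested. Ccnl1 and Cdc42ep3 were higher (2 of 73, beside 1.93% of all genes), and Mcm6 and Cdc40 were lower (2 of 73, beside 1.27% of all genes). Among single probes of all genes 2.80% passed the same test. These names depend on the numbering: without control spots Ccnl1 stood at -0.23, Cdc42ep3 at -0.039 and Mcm6 at -0.15, none of which passed, while Cdc40 (-0.87), Bub1 (-0.67) and Orc2 (-0.61) passed. The median log2 ratio of the tested members was -0.0051 beside -0.011 of all genes, and 34 of 73 members (46.6%) had a positive ratio beside 47.9% of all genes. No tested member reached a log2 ratio of 1 in size, and for 69 of 73 members the whole 95% interval lay between -1 and 1, a share of 94.5% beside 96.2% of all genes. In RNA of whole tissue, fewer cells of a type and less RNA per cell cannot be told apart.

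**Figure D1:**
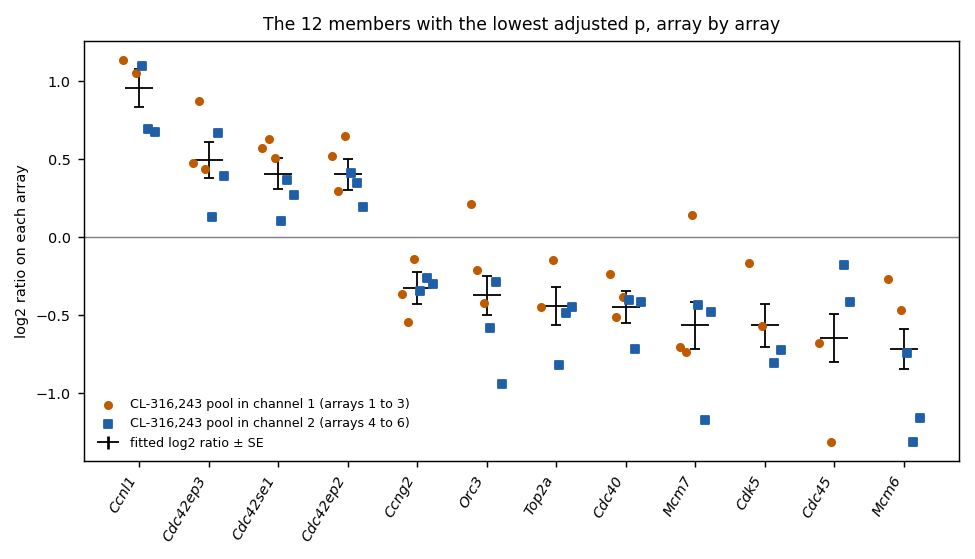
Log2 ratio on each array for the 12 members with the lowest limma adjusted p. Circles are arrays with the CL-316,243 pool in channel 1, squares arrays with it in channel 2, and black bars the fitted ratio ± SE; Ccnl1 lies at 0.67 or above on all 5 arrays that measured it and Mcm6 at -0.27 or below on all 5.

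Ccnl1 had the most positive ratio of the set. It encodes cyclin L1, a partner of Cdk11 that works in transcription and splicing of pre-mRNA and not in the timing of cell division. The log2 ratios of Ccnl1 (Entrez 56706) were 1.14 and 1.05 on arrays 1 and 3 and 1.10, 0.70 and 0.67 on arrays 4, 5 and 6, with no value on array 2. All 5 were positive, and the orientations overlap. The fitted ratio was 0.96 ± 0.12 (SE, n = 5 arrays), which is 1.94-fold higher, with a 95% interval of 0.68 to 1.24 and a limma adjusted p of 0.00471. It ranked 109 of 12498 genes from the most positive. The arrays with the CL-316,243 pool in channel 1 alone gave 1.10 with an adjusted p of 0.0717.

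The other cyclins that act in transcription or outside the core cycle went different ways, and none passed. Ccnl2, the close relative of Ccnl1, was positive on all 5 arrays that measured it, between 0.06 and 0.95, and its fitted ratio of 0.36 ± 0.16 (limma adjusted p = 0.29) missed the threshold. Cdk11b, whose kinase pairs with both L-type cyclins, stood at 0.01 ± 0.11, and its 2 probes gave -0.01 and 0.02. Ccnt2, a partner of Cdk9 in transcription elongation, stood at 0.08 ± 0.10. Ccng2 encodes cyclin G2, known for high levels in resting cells. Its ratio was negative on all 6 arrays, from -0.54 to -0.14, with a fitted value of -0.33 ± 0.10 and a limma adjusted p of 0.12. Ccng1, a target of p53, was at -0.28 ± 0.12 (limma adjusted p = 0.25).

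A stretch before a Ccnl1 start site is shown because Ccnl1 is the member with the lowest adjusted p and because the agonist's receptor raises cyclic AMP, whose response element is the palindrome TGACGTCA. The match and the bases around it lie at chr3:65958250-65958278 on the minus strand of GRCm38.p6, written 5′ to 3′ with the match in capitals.
Ccnl1: tgtcggcgtggTGACGTCAgggcggaagc
The match begins 18 bases before the start that RefSeq's promoter table gives for Ccnl1. Another annotated start of the gene lies 3780 bases farther upstream, so this window is inside the annotated gene, and which start was used in this tissue was not measured. The same 8 letters, searched on both strands of the 250 bases before each start, occur in 1.55% of 32851 promoters and in 5 of the 72 members with a promoter in the table (6.94%). Below are the other 3 tested members with a match, each shown as 30 bases around it.
Orc5: gcgcggctcccTGACGTCActcgaccgcgc
Cdc14b: ctccagttgcgTGACGTCAcgccgcactga
Cdc5l: tgccctccgcgTGACGTCAggaccaatccc
None of these passed the test: Orc5, a subunit of the origin recognition complex, stood at 0.19, Cdc14b, a phosphatase, at -0.34 and Cdc5l, a splicing factor, at -0.10. The fifth, Mcm5, was not tested. A match of letters is a description, and the motif was chosen after the values had been seen.

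Mcm6 and Cdc45, parts of the replication helicase, had the lowest ratios of the set. Mcm6, a subunit of the helicase ring, was lower on every array that measured it. The log2 ratios of Mcm6 (Entrez 17219) were -0.27 and -0.47 on arrays 1 and 3 and -0.74, -1.31 and -1.16 on arrays 4, 5 and 6. The arrays with the CL-316,243 pool in channel 2 all lie below the other arrays, so the orientations do not overlap, and the orientation term of -0.35 did not pass (limma adjusted p = 0.43). The fitted ratio was -0.72 ± 0.13 (SE, n = 5 arrays), 1.64-fold lower, with a 95% interval of -1.01 to -0.42 and a limma adjusted p of 0.0215. It ranked 83 of 12498 from the most negative. The call needs arrays 5 and 6: without array 5 the ratio was -0.66 (limma adjusted p = 0.10) and without array 6 it was -0.70 (limma adjusted p = 0.0563). The arrays with the CL-316,243 pool in channel 1 alone gave -0.37 with an adjusted p of 0.49.

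The other ring subunits had mostly negative ratios, and none passed. Mcm7 was at -0.71, -0.73 and 0.14 on arrays 1, 2 and 3 and at -0.43, -1.17 and -0.48 on arrays 4, 5 and 6. Array 3 is the only positive one. The fitted ratio of Mcm7 was -0.56 ± 0.15 (n = 6 arrays, limma adjusted p = 0.0783), and without array 3 it was -0.71 with an adjusted p of 0.0149. That setting drops the 1 array with the other sign and needs a value on array 2, whose placement stands apart. It tested 34 members and 7445 genes, so its pass adds little. Mcm2 stood at -0.11 ± 0.11 and Mcm3 at -0.0038 ± 0.15, with limma adjusted p-values of 0.66 and 0.99. Mcm4 had values on 4 arrays, -0.02, -0.79, -0.56 and -0.51 on arrays 1, 4, 5 and 6, and Mcm5 on 3, -0.10, -0.27 and -0.74 on arrays 1, 3 and 6. Both lacked the arrays needed for a test. Over all 6 ring genes 23 of 28 array values were negative (82.1%), beside 50.9% of the values of all genes, and values of 1 array or of 1 gene are not independent of each other.

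**Figure D2:**
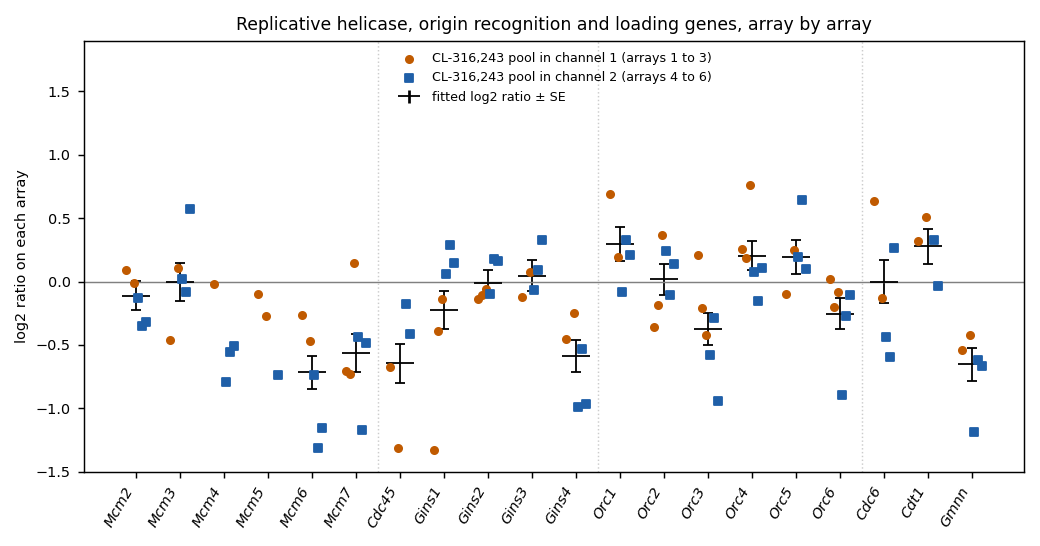
Log2 ratio on each array for the ring subunits Mcm2 to Mcm7, the helicase partners Cdc45 and GINS, the origin recognition subunits and the loading genes Cdc6, Cdt1 and Gmnn, with the fitted ratio ± SE in black where it was tested. Mcm6, Gins4 and Gmnn lie below 0 on all of their 5 arrays, while Orc1 to Orc6 lie on both sides of 0.

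Cdc45, which joins the ring to form the active helicase, had the second lowest ratio. It was at -0.68 and -1.31 on arrays 1 and 3 and at -0.18 and -0.41 on arrays 5 and 6, negative on all 4. The fitted ratio was -0.64 ± 0.15 (limma adjusted p = 0.0685), with a 95% interval of -1.0 to -0.29. It passed (adjusted p = 0.0478) where columns were placed on control spots alone, with the same ratio and fewer genes tested. Cdc7, the kinase that triggers origin firing with Dbf4, stood at 0.28 ± 0.18, with array 3 at 1.02 and the other 3 arrays at 0.12 or below. Mcm8 and Mcm9, which form a separate helicase used in repair, went opposite ways at -0.30 ± 0.11 and 0.22 ± 0.12, each with 1 sign on all of its arrays. Mcm10, which binds the fork helicase, was at -0.18 ± 0.10, and only 1 of its probes had values on more than 2 arrays. None of these 4 passed the test.

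The origin recognition complex showed no common direction. Orc1 (0.30 ± 0.13), Orc2 (0.02 ± 0.12), Orc4 (0.21 ± 0.11) and Orc5 (0.19 ± 0.13) had positive fitted ratios and Orc3 (-0.37 ± 0.13) and Orc6 (-0.25 ± 0.12) negative ones, and 0 of 6 passed limma's test, with 1 of 6, Orc3, at an unadjusted p under 0.05. The lowest adjusted p of these 6 was 0.15, for Orc3. Of their array values 16 of 34 were negative (47.1%), which is near the 50.9% of all genes. Cdc6, the ATPase that loads the ring together with the complex, ranged from -0.60 on array 5 to 0.64 on array 1 and its fitted ratio was -0.00079 ± 0.17.

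The promoter of Mcm6 is shown because Mcm6 was the member with the largest negative ratio and because Mcm genes are textbook targets of E2F factors. It is the 250 bases upstream of the start at chr1:128359706-128359955 of GRCm38.p6, minus strand, written 5′ to 3′, with E2F motifs in capitals. The motifs searched were TTTCCCGC, TTTGGCGC, TTTCGCGC and TTTGCCGC on both strands.
Mcm6: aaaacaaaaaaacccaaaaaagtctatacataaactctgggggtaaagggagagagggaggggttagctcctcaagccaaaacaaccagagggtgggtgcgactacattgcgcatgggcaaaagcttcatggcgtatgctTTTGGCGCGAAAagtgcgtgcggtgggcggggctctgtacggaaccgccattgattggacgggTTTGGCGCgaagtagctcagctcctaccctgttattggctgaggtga
There are 3 matches, and the pair farther from the start overlap on opposite strands. A match was found in 1.86% of 32851 promoters and in 9 of 72 members (12.5%). Tested members with a match lay on both sides of zero, as these 4 of the other 7 show, each with 30 bases around its match.
Mcm7: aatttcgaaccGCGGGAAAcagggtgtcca
Orc1: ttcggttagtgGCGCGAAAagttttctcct
Cdk1: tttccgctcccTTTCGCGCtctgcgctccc
Orc3: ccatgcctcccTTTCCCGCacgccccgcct
The windows of Mcm7 and Orc1 lie inside the annotated gene, because the starts used for them are 228 and 3749 bases from its outermost start. Mcm7 (-0.56) and Orc3 (-0.37) had negative ratios, and Orc1 (0.30) and Cdk1 (0.44) positive ones. The 8 tested members with a match had a median of 0.07 and 4 of them were positive; the 57 tested members without one had a median of -0.0038 and 28 were positive. The E2F motifs, like the cyclic AMP response element, were chosen after the values had been seen.

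The cyclins that time the cycle did not pass. Among the D-type cyclins, which sense growth signals, Ccnd2 stood at -0.18 ± 0.13 and Ccnd3 at 8.9e-05 ± 0.12, and Ccnd1 had values on 3 arrays only, 0.17, 0.11 and 0.01 on arrays 1, 5 and 6. The 95% intervals were -0.49 to 0.12 for Ccnd2 and -0.28 to 0.28 for Ccnd3, which leave room for a modest difference in either direction. Ccne1, which starts S phase with Cdk2, spread widely, from -1.17 on array 1 to 0.77 on array 3, and its fitted ratio of 0.02 had an SE of 0.25. Ccna2, the cyclin of S phase and G2, was at -0.21 and 0.16 on arrays 1 and 3 and at -0.54, -0.41 and -1.01 on arrays 4, 5 and 6. Its fitted ratio was -0.34 ± 0.14 (limma adjusted p = 0.23), and array 3 alone was positive. The mitotic cyclin Ccnb2 had values only on arrays 4, 5 and 6, at -0.65, -0.38 and -0.33, and was not tested. Ccnb3, a B-type cyclin known mainly from meiosis, was positive on all 5 arrays that measured it, between 0.01 and 0.78, with a fitted ratio of 0.29 ± 0.13 (limma adjusted p = 0.28).

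All 5 tested kinases listed here under the cycle had positive fitted ratios, beside 47.9% of all genes. In limma's test 0 of 5 passed, beside 3.20% of all genes. Only Cdk7 had an unadjusted p under 0.05, beside 18.3% of all genes. With 5 genes, of which Cdk4 and Cdk6 lay within 1 SE of 0, the shared sign is no result about these kinases. Cdk7, which activates other Cdks and is also a subunit of the transcription factor TFIIH, was positive on all 5 arrays that measured it. It was at 0.75 and 0.12 on arrays 1 and 3 and at 1.03, 0.62 and 0.02 on arrays 4, 5 and 6, with a fitted ratio of 0.50 ± 0.17 (limma adjusted p = 0.16). Cdk1, the kinase of mitosis, was at 2.10 on array 4 and between -0.02 and 0.32 on the other 4 arrays. Its fitted ratio of 0.44 ± 0.29 therefore rests on 1 array: without array 4 it was 0.087, and the value of array 4 is not kept at a posterior of at least 0.99 or on control spots alone. Cdk2 stood at 0.31 ± 0.16, Cdk4 at 0.05 ± 0.14 and Cdk6 at 0.09 ± 0.11.

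The remaining kinases named Cdk were listed under transcription or other roles. Cdk5, the kinase of neurons that in fat cells phosphorylates Pparg, was at -0.16 and -0.57 on arrays 1 and 3 and at -0.80 and -0.72 on arrays 5 and 6. All 4 values were negative, and the fitted ratio of -0.56 ± 0.14 missed the threshold (limma adjusted p = 0.0757). Cdk18 was at 1.51 on array 4 and no higher than 0.52 on the other 4 arrays, with a fitted ratio of 0.47 ± 0.17 (limma adjusted p = 0.18), which was 0.30 without array 4. Cdk9, the kinase of transcription elongation, had values on arrays 4, 5 and 6 only, 0.08, 0.19 and -0.52. The other 6 tested kinases of this kind, Cdk11b among them, lay between -0.31 and 0.14.

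None of the tested enzymes of DNA synthesis passed. Top2a, the topoisomerase of S phase and mitosis, was at -0.45 and -0.15 on arrays 1 and 3 and at -0.82, -0.48 and -0.44 on arrays 4, 5 and 6. It was negative on all 5, with a fitted ratio of -0.44 ± 0.12 and a limma adjusted p of 0.0987. Tyms, which makes thymidylate, stood at -0.05 ± 0.12, and Rrm1, a subunit of ribonucleotide reductase, at -0.05 ± 0.23. Rrm1 ranged from -0.84 on array 1 to 0.92 on array 3. Pcna, the sliding clamp of the fork, was at -0.39 and -0.27 on arrays 5 and 6, and the proliferation marker Mki67 at -0.22, -0.67, -0.06 and -0.61 on arrays 1, 4, 5 and 6. Neither was tested. Rrm2, the other subunit of that reductase, was at 0.14, -0.17, 0.08 and 0.05 on arrays 3 to 6 and was not tested.

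None of the tested mitotic kinases passed, and their fitted ratios lay between -0.24 and 0.15. Aurka stood at 0.07 ± 0.12, Aurkb at 0.15 ± 0.11, Plk1 at -0.18 ± 0.16 and the checkpoint kinase Bub1 at -0.24 ± 0.12, and the lowest limma adjusted p of these 4 was 0.31. Cdc20, the activator of the anaphase-promoting complex, stood at -0.03 ± 0.10 with a 95% interval of -0.25 to 0.19. The subunits of that complex, Cdc16, Cdc26 and Cdc27, lay between -0.08 and 0.21. The probes of Cdc26 differed in sign, at -0.22 and 0.09. Cdc25a, a phosphatase that activates Cdk2, stood at 0.14 ± 0.18 and ranged from -0.67 on array 6 to 0.62 on array 4.

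**Figure D3:**
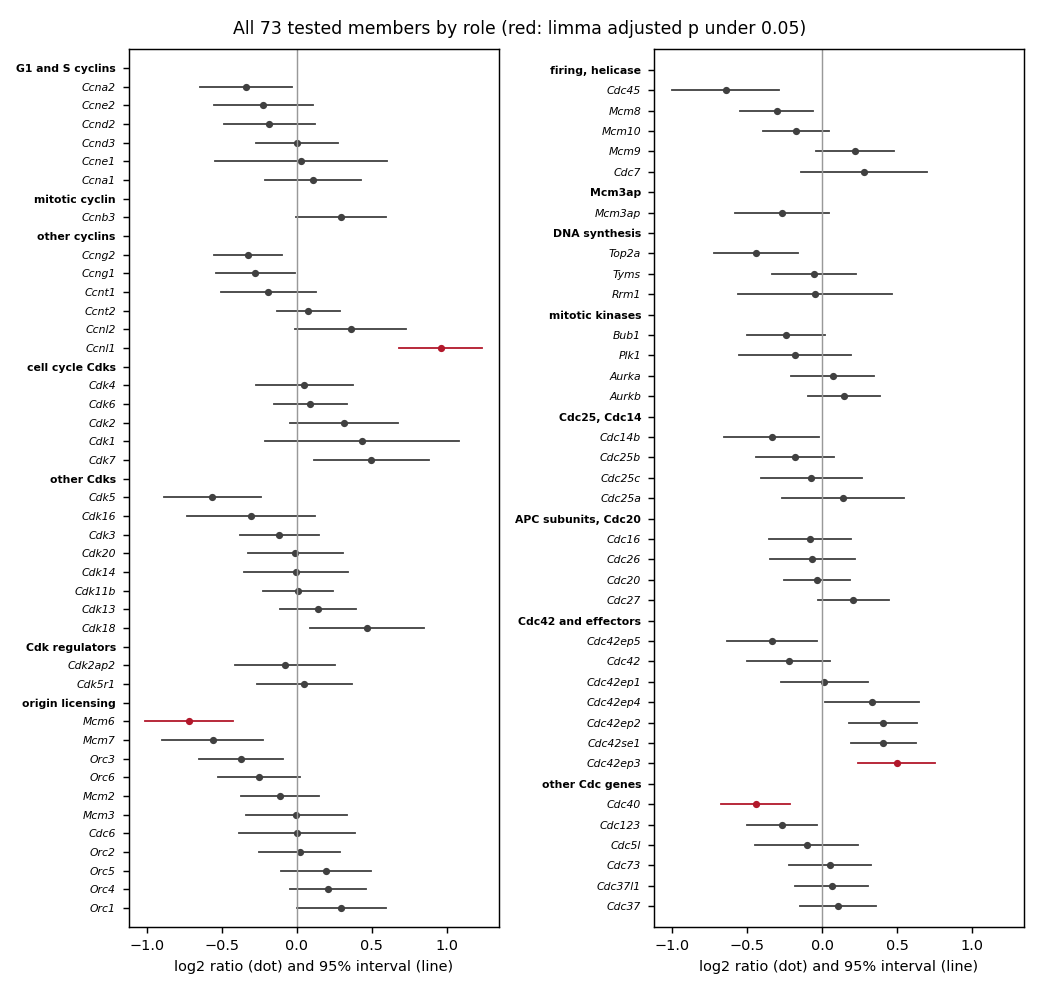
Fitted log2 ratio (dot) with its 95% interval (line) for all 73 tested members, grouped by role; red marks the 4 with a limma adjusted p under 0.05. Most intervals include 0, and those of Ccnl1, Cdc45, Cdk1 and Mcm6 reach past 1 in size.

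Cdc42 and its partners share a name with the cell cycle genes but organise actin and cell shape. Cdc42ep3, an effector that binds the active GTPase and shapes septin and actin fibres, was higher. The log2 ratios of Cdc42ep3 (Entrez 260409) were 0.48, 0.87 and 0.44 on arrays 1, 2 and 3 and 0.13, 0.67 and 0.39 on arrays 4, 5 and 6. All 6 were positive, and the orientations overlap. The fitted ratio was 0.50 ± 0.11 (SE, n = 6 arrays), 1.41-fold higher, with a limma adjusted p of 0.0479. Without array 2 it was 0.43 and did not pass (limma adjusted p = 0.10), nor did it pass without array 1, 4, 5 or 6, where it lay between 0.43 and 0.56.

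The effector Cdc42ep2 and the small effector Cdc42se1 stood just outside the threshold. Cdc42se1 was at 0.57, 0.63 and 0.51 on arrays 1, 2 and 3 and at 0.10, 0.37 and 0.27 on arrays 4, 5 and 6. The fitted ratio of Cdc42se1 was 0.41 ± 0.10 (limma adjusted p = 0.0562), and its arrays with the CL-316,243 pool in channel 1 all lie above the others. Cdc42ep2 lay between 0.19 and 0.65 on all 6 arrays, with a fitted ratio of 0.40 ± 0.10 (limma adjusted p = 0.0638). Both passed when only genes with values on all 6 arrays were tested, with the same ratios. That setting tested 7274 genes in place of 12498, and 4.74% of them passed. It needs a value on array 2, whose placement stands apart. Cdc42ep4 stood at 0.33 ± 0.14, Cdc42ep1 at 0.01 ± 0.13 and Cdc42ep5 at -0.34 ± 0.14. Cdc42 itself stood at -0.22 ± 0.12 (limma adjusted p = 0.38), and the fitted ratios of its effectors did not share 1 sign. The 7 genes of this family had a median of 0.33 beside -0.011 of all genes, with 5 positive and 1 called, beside 47.9% positive and 3.20% called of all genes; with 7 genes, 1 call is no result about the family.

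Cdc40 is also known as Prp17, a factor of the second step of pre-mRNA splicing, and was the fourth member past the test. The log2 ratios of Cdc40 (Entrez 71713) were -0.24, -0.51 and -0.38 on arrays 1, 2 and 3 and -0.40, -0.71 and -0.42 on arrays 4, 5 and 6. All 6 were negative, and the orientations overlap. The fitted ratio was -0.44 ± 0.10 (SE, n = 6 arrays), 1.36-fold lower, with a limma adjusted p of 0.0479. Without array 2 it was -0.41 and did not pass (limma adjusted p = 0.0969), nor did it pass without any other single array, where it lay between -0.48 and -0.39. The 5 other tested genes of this kind, among them the kinase chaperone Cdc37 at 0.11 ± 0.11 and the transcription factor subunit Cdc73 at 0.05 ± 0.12, did not pass.

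Of the 4 members past the test, then, Mcm6 alone works in the cycle or in replication itself. Among the 43 tested members listed under roles in the cycle, origin licensing, DNA synthesis or mitosis, that 1 gene passed (2.33%, beside 3.20% of all genes). Of these 43 genes, 19 were positive and 24 negative. In all, 19 of 73 members kept 1 sign on every array that measured them (26%, beside 14.1% of all genes), 11 of them positive and 8 negative. At an unadjusted p under 0.05 stood 21 members (28.8%, beside 18.3% of all genes), 7 higher and 14 lower. Of the 43 genes above, 9 kept 1 sign on every array (20.9%, beside 14.1% of all genes). At an unadjusted p under 0.05 stood 9 of these 43 (20.9%, beside 18.3% of all genes) and 5 of the 7 genes of the Cdc42 family.

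**Figure D4:**
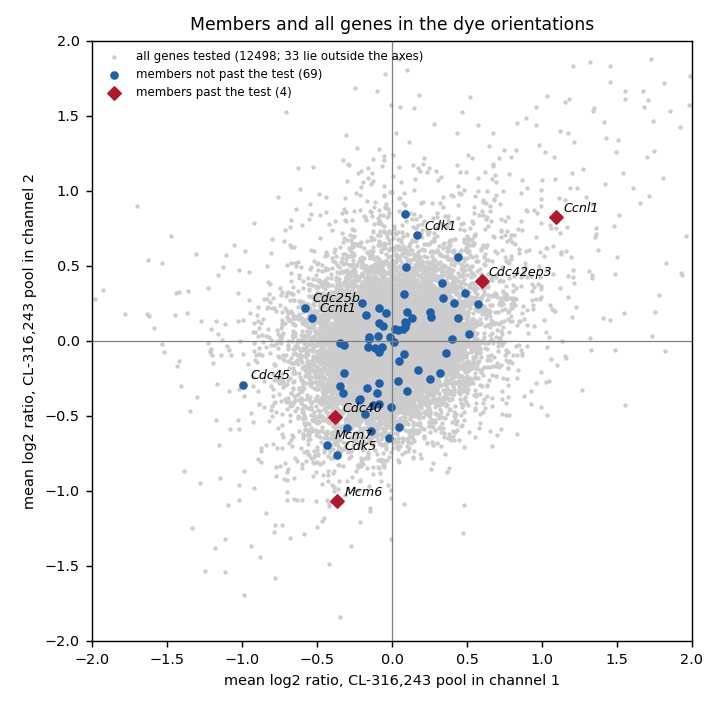
Mean log2 ratio with the CL-316,243 pool in channel 1 (horizontal) against that with it in channel 2 (vertical) for members and, in grey, all genes tested. Ccnl1 and Cdc42ep3 lie in the upper right and Mcm6 and Cdc40 in the lower left, while Cdc25b and Ccnt1 lie in the upper left, with opposite signs.

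Signs were opposed between the dye orientations on every array with a value in 2 of 73 members (2.74%), beside 891 of 12498 genes (7.13%). Placement draws on agreement between arrays and so raises agreement in sign. In limma's test of the orientation term 0 of 73 members passed, beside 1 of all 12498 genes (0.00800%). The largest orientation terms in size were those of Cdc25b, Cdk18 and Mcm6, at 0.40, 0.38 and -0.35, and their limma adjusted p-values lay between 0.37 and 0.47. Cdc25b, a phosphatase that activates Cdk1 before mitosis, was at -0.20, -0.87 and -0.67 on arrays 1, 2 and 3 and at 0.32, 0.07 and 0.27 on arrays 4, 5 and 6. Its signs follow the dye, and its fitted ratio was -0.18 ± 0.12.

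Other genes of the pathway were read from 5 lists drawn up by function. Of all genes 3.20% passed, 1.27% as lower, and 18.3% had an unadjusted p under 0.05. Among the Cdk inhibitors 1 of 7 tested genes passed and was higher, among Rb and E2F factors 0 of 12 passed limma's test (3 at an unadjusted p under 0.05), among replication fork genes 2 of 32 passed and both were lower, among mitosis genes 0 of 26 passed (6 at an unadjusted p under 0.05), and among checkpoint and control genes 1 of 14 passed and was lower. The replication fork genes had a median of -0.10, with 11 of 32 positive, beside a median of -0.011 and 47.9% positive of all genes. Of these 32 genes 6 had an unadjusted p under 0.05 (18.8%, near the 18.3% of all genes). On every array with a value 5 kept 1 sign (15.6%, near the 14.1% of all genes). Without control spots Cdkn1a stood at -0.095, Gmnn at -0.48, Gins4 at -0.29 and Fbxo5 at -0.31, and none of these 4 passed.

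Cdkn1a encodes p21, which inhibits Cdk2 and binds the clamp Pcna, and it was higher. Its log2 ratios were 1.30 and 1.39 on arrays 1 and 3 and 2.66, 1.60 and 0.40 on arrays 4, 5 and 6. Array 6 is the lowest and array 4 the highest, so the orientations overlap. The fitted ratio of Cdkn1a was 1.45 ± 0.27 (limma adjusted p = 0.0239), and without array 5 it was 1.44 with an adjusted p of 0.0988. The other 6 tested inhibitors did not pass, and Cdkn1c (p57) had the lowest of their ratios at -0.38 ± 0.11.

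Gmnn encodes geminin, which keeps Cdt1 from loading the Mcm ring again within a cycle, and it was lower. Its log2 ratios were -0.54 and -0.42 on arrays 1 and 3 and -1.19, -0.62 and -0.67 on arrays 4, 5 and 6, all negative. The fitted ratio of Gmnn was -0.65 ± 0.13 (limma adjusted p = 0.0327). Gins4, a subunit of the GINS complex that joins Cdc45 and the Mcm ring, was lower too. It was at -0.45 and -0.25 on arrays 1 and 3 and at -0.99, -0.53 and -0.97 on arrays 4, 5 and 6, with a fitted ratio of -0.59 ± 0.13 (limma adjusted p = 0.0416). The other GINS subunits did not pass, at -0.22 for Gins1, -0.01 for Gins2 and 0.05 for Gins3. Neither Gmnn (-0.70 to -0.56) nor Gins4 (-0.66 to -0.55) passed without array 4, 5 or 6.

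Fbxo5 encodes Emi1, an inhibitor of the anaphase-promoting complex, and it was lower. Its log2 ratios were -1.45, -2.15 and -0.63 on arrays 1, 2 and 3 and -0.12, -0.70 and -0.08 on arrays 4, 5 and 6. All 6 were negative, and the size differed widely, with a mean of -1.41 over arrays 1 to 3 and -0.30 over arrays 4 to 6. The fitted ratio of Fbxo5 was -0.86 ± 0.18 (limma adjusted p = 0.0329), and without array 2 it was -0.67 with an adjusted p of 0.058. It did not pass without array 1, 4, 5 or 6 either, where it lay between -0.91 and -0.76, nor with no orientation term (adjusted p = 0.0941) or a posterior of at least 0.5 (adjusted p = 0.052).

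**Figure D5:**
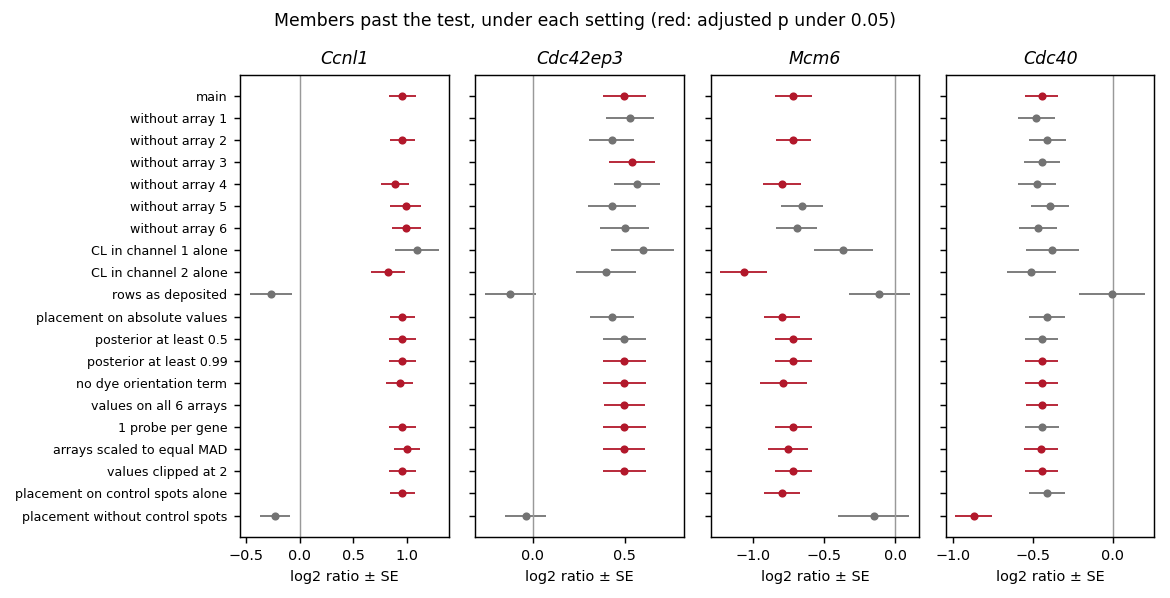
Fitted log2 ratio ± SE of the 4 members past the test under each way of processing, with red for a limma adjusted p under 0.05 and no point where a gene could not be tested; the horizontal axes differ between panels. Ccnl1 and Cdc42ep3 lie below 0 with rows as deposited and without control spots and above 0 elsewhere. Ccnl1 passed in 13 of 16 alternatives, Mcm6 in 11 of 16, Cdc42ep3 in 7 of 18 and Cdc40 in 6 of 19. The passes of Cdc40 include placement without control spots, where most names stand for another spot. Ccnl1 and Mcm6 have no value on array 2, so leaving that array out repeats their ratios.

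Markers of the cells of fat tissue were read beside the members. In the lists of adipocyte, macrophage, lymphocyte, endothelial and stromal progenitor genes, 0 of 8, 0 of 4, 0 of 4, 0 of 4 and 0 of 5 tested genes passed limma's test, with 4, 2, 0, 1 and 1 at an unadjusted p under 0.05, beside 3.20% and 18.3% of all genes. Their fitted ratios ran from -0.47 to 1.17, -0.66 to 0.56, -0.38 to 0.26, -0.51 to 0.12 and -0.38 to 0.17 in the same order. The 1 tested gene of red blood cells, Alas2, stood at 0.33 ± 0.13 and did not pass (limma adjusted p = 0.23). The part of these genes in the member results was not tested.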

How the data were processed

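The deposited log2 ratios of 6 two-colour arrays were made by the authors, per the labels, from QuantArray 3.0 readings with a uniform scale factor between the dyes and LOWESS in their own program; the log base is taken as 2. Background correction, the rule for dropping spots and the numerator are not stated in the labels used here. Blank cells (29, 724, 38, 169, 8 and 1 on arrays 1 to 6) came only after the last value of a column, so a hidden Markov model that lets a column lose spots but not gain or reorder them assigned its values to the 19200 probe numbers (3 rounds, scores clipped at 3, posterior at least 0.95). The model used values predicted from the other arrays and the 24 unnamed control spots that open each of 48 blocks of 400, whose pattern repeats within an array. The use of control spots was chosen after seeing the data, and departs from the design, which named agreement between arrays alone: agreement sets arrays against each other, and the probe numbers then rest on where the losses of the fullest column are put. Because it draws on agreement between arrays, it raises that agreement, in sign as well.

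Names came from GEO's platform annotation (14717 of 19200 probes, 14711 with 1 symbol; 4483 have no name here). Current records were found for the Entrez identifiers of 14416 probes, with 0 symbols changed. Of member probes 1 carries several symbols and was not named. A gene's value on an array is the mean of its placed probes. Genes with values on at least 2 arrays of each orientation were tested in limma 3.58.1 under R 4.3.3 (functions lmFit and eBayes), with orientation coded plus and minus 1, deposited signs kept, and p-values adjusted by Benjamini-Hochberg over all 12498 genes. Errors are moderated standard errors and intervals are 95%. The number of arrays limits the precision. Promoters came from RefSeq's GRCm38.p6 annotation, which held 72 of the 82 members.

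The members, the role, pathway and marker lists and the tests were chosen with earlier results of these data known. Named genes are every member or pathway gene past the test, the 5 most positive and 5 most negative members, the 3 largest orientation terms, the defining cyclins, kinases, Mcm, Orc and mitosis genes whatever their values, and members whose probes differ in sign; other genes named to complete a family or list were chosen after their values were seen. Alternatives were leaving out each array, 1 orientation alone, rows as deposited, other placements and posteriors, no dye term, values on all 6 arrays, 1 probe per gene, equal spread of the arrays, values clipped at 2 and, added after seeing the data, placement on control spots alone and placement without control spots, which starts from array 6 as deposited.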

Additional observations from a re-analysis of the deposited data

Results flagged for a closer look

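Cdc25b and Ccnt1 had opposite signs in the dye orientations on every array that measured them. Cdc25b averaged -0.58 over arrays 1 to 3, which carry the CL-316,243 pool in channel 1, and 0.22 over arrays 4 to 6, and its orientation term of 0.40 did not pass (limma adjusted p = 0.37). Ccnt1, a cyclin of transcription elongation, averaged -0.53 and 0.15, with an orientation term of 0.34 (limma adjusted p = 0.45); its lowest value, -1.21, was on array 2. Such a split was seen in 2 of 73 tested members (2.74%) and in 891 of 12498 genes (7.13%).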

How the results depend on the processing

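The number of members past the test was 4, and leaving out 1 array gave 0 to 2 (0 without array 1, 2 without array 2, 3 or 4 and 1 without array 5 or 6), while the calls over all genes went from 400 to between 118 and 358 and over all probes from 475 to between 128 and 390. Without array 1 or array 3 only 34 members could be tested. With 1 array left out, 0% to 5.88% of the tested members passed, beside 1.03% to 4.81% of all genes. The arrays with the CL-316,243 pool in channel 1 alone gave 0 of 74 members, 96 of 12615 genes and 71 probes. There 8 of 74 members had an unadjusted p under 0.05, beside 1632 of 12615 genes. Those with it in channel 2 alone gave 2 of 81 members (2.47%), 252 of 13272 genes (1.9%) and 283 probes. Rows as deposited gave 0 of 82 members, 0 of 13409 genes and 0 of 18010 probes (0, 489 and 633 at an unadjusted p under 0.05). There Ccnl1 was at -0.27, Cdc42ep3 at -0.12, Fbxo5 at 0.13 and Gmnn at 0.24, on the other side of zero, as those rows do not hold the same spot on each array. Placement on absolute values gave 2 of 62 members (3.23%, beside 2.79% of all genes). A posterior of at least 0.5 gave 2 of 80 members (2.5%, beside 2.78% of all genes). Placement on control spots alone, chosen after seeing the data, tested 46 members and called 3, namely Ccnl1, Cdc45 and Mcm6 (6.52%). Beside these, 259 of 8983 genes were called (2.88%). Placement without control spots, also chosen after seeing the data, gave most probes a number 1 position away, so that a name stands for another spot. It called 3 of 67 members, namely Bub1, Cdc40 and Orc2 (4.48%), 268 of 11847 genes (2.26%) and 349 probes. In that placement Ccnl1 was at -0.23, Cdc42ep3 at -0.039, Cdkn1a at -0.095 and Orc2 at -0.61, on the other side of zero. The median of the members lay between -0.083 and 0.0077 when 1 array was left out. Of 651 values of the 46 tested genes named by rule, rows as deposited and placement without control spots left out, 42 had the other sign than in the main analysis, none of them of a gene past the test, and 31 of 46 genes kept their sign throughout. Uncalled genes that passed in an alternative were Mcm7 without array 3, Cdc45 on control spots alone, Cdc42ep2 and Cdc42se1 with values on all 6 arrays, and Bub1 and Orc2 without control spots. The cause of these differences was not tested, apart from the fewer genes or arrays that some alternatives test. No paired analysis was possible because the array numbers are not shared between the orientations.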

Other observations

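Members that lacked the arrays needed for a test were Ccnb2, Ccnd1, Cdk5r2, Cdk9, Mcm4, Mcm5, Mki67, Pcna and Rrm2. They had 30 array values in all, of which 20 were negative (66.7%), beside 50.9% of the values of all genes. Values of 1 array or of 1 gene are not independent, and those of Mcm4 and Mcm5 are also counted with the ring genes above. Over all members 213 of 420 values were negative (50.7%). Cdk5r2, an activator of Cdk5 in neurons, was at -0.23 on array 1 and at 0.68, 0.71 and -0.54 on arrays 4, 5 and 6.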
